A study of Mus musculus with 48 samples.

Results

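The hippocampus was set against the brain hemisphere in male wild-type C57Bl6 mice that had received angiotensin II from an osmotic minipump at 0.7 mg per kg per day for 2 weeks and are labelled hypertensive. The comparison takes 12 of the 48 RNA-sequencing libraries of the series, 6 hippocampal and 6 hemisphere, and 15457 of the 54532 genes in the table reached 0.5 FPKM (fragments per kilobase of gene, scaled to library depth) in at least 6 of those 12 libraries. Mice infused with saline vehicle for the same 2 weeks gave another 6 hippocampal and 6 hemisphere libraries, in which 15248 genes passed the same filter; they show which regional differences are there without angiotensin II. The labels do not say which structures the hemisphere sample held, whether both regions came from the same mouse, or that each library was a separate animal. The p-values therefore speak of differences among the sequenced libraries, part of which may be technical.

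The hippocampus is a folded sheet of cortex in which granule cells of the dentate gyrus and pyramidal neurons of the CA fields form a relay used in memory. Its neurons carry unusually high levels of receptors for corticosteroid hormones, and they switch on immediate early genes, transcription factors and synaptic regulators whose RNA appears within minutes of strong activity and decays soon after. Angiotensin II, the active peptide of the renin-angiotensin system, constricts vessels and raises blood pressure, and in the brain it acts mainly through receptors in the hypothalamus, brain stem and circumventricular organs.

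Of the 12 angiotensin II libraries, 3 stood apart. Hippocampal replicate 3 listed 14043 genes above 0, against 21986 to 23044 in the other 5 hippocampal libraries. Hippocampal replicate 6 had the lowest summed level of ribosomal protein genes of its group, 4260 FPKM against 9196 to 11730 FPKM, while hemisphere replicate 6 had the highest of its own, 6135 FPKM against 4272 to 4889 FPKM. Reads in genes (M, 1e+06 reads) were 14.4 to 20.9 M in hippocampal libraries and 17.0 to 20.5 M in hemisphere libraries. Genes above 0 were fewer in all hippocampal libraries (median 22291, against 24566 in hemisphere libraries; exact two-sided permutation p = 0.0022, the smallest that 6 libraries against 6 can give). Mitochondrial genes held 5.74% to 10.01% of reads in hippocampal libraries and 2.77% to 6.66% in hemisphere libraries (exact permutation p = 0.013). The length trend was Spearman's rho of gene length with each library's level relative to the mean of the 24 angiotensin II and vehicle libraries. It was -0.34 to 0.29 in hippocampal libraries and -0.15 to 0.22 in hemisphere libraries (exact permutation p = 0.035). Results without these 3 libraries are given for part of the genes and lists, and values given only once can also depend on them.

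Regional differences were many in angiotensin II mice. With limma on log2(FPKM + 0.5) after scaling each library to a common median, 4107 genes were higher in the hippocampus (26.6% of those tested) and 3455 were lower (22.4%) at a Benjamini-Hochberg adjusted p under 0.05. At least 2-fold on that scale, 993 genes were higher (6.42%) and 1285 were lower (8.31%). In vehicle mice 4162 genes were higher (27.3% of 15248) and 3318 were lower (21.8%). The split between higher and lower depends on the scaling: without any scaling 2735 genes were higher and 4820 were lower under angiotensin II, with a median difference over all genes of -0.12 against 0.05 with scaling, and with median-of-ratios scaling 3212 were higher and 4256 lower. Without the 3 libraries 6460 genes were higher and 4841 lower; 7469 of the 7562 genes called in all 12 libraries (98.8%) kept their call and direction, 0 took the opposite direction, and 3832 further genes were called.

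The genes furthest apart named the tissue. Spink8, a protease inhibitor gene that marks CA1 pyramidal neurons in the mouse, was at 44.3 to 98.7 FPKM (median 83.2) in the hippocampus and 1.74 to 3.75 FPKM (median 2.81) in the hemisphere of angiotensin II mice. The groups did not overlap, and the log2 difference was 4.73 ± 0.22 (standard error; adjusted p = 7.1e-09), against 4.65 ± 0.14 in vehicle mice. Lct, the lactase gene, a marker of dentate granule cells in the mouse, was at 9.85 to 13.2 FPKM (median 11.2) in the hippocampus and 0.476 to 0.725 FPKM (median 0.585) in the hemisphere, a log2 difference of 3.60 ± 0.09 (adjusted p = 4.2e-11). Prox1, the transcription factor that holds granule cell identity, was at 6.81 to 12.2 FPKM (median 8) in the hippocampus and 0.854 to 2.33 FPKM (median 1.93) in the hemisphere, 2.18 ± 0.17 apart on the log2 scale (adjusted p = 5.9e-07). Each of these genes separated the regions without overlap. The lowest hippocampal Spink8 value, 44.3 FPKM, was in replicate 6, and the highest hemisphere value, 3.75 FPKM, was also in replicate 6.

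**Figure D1:**
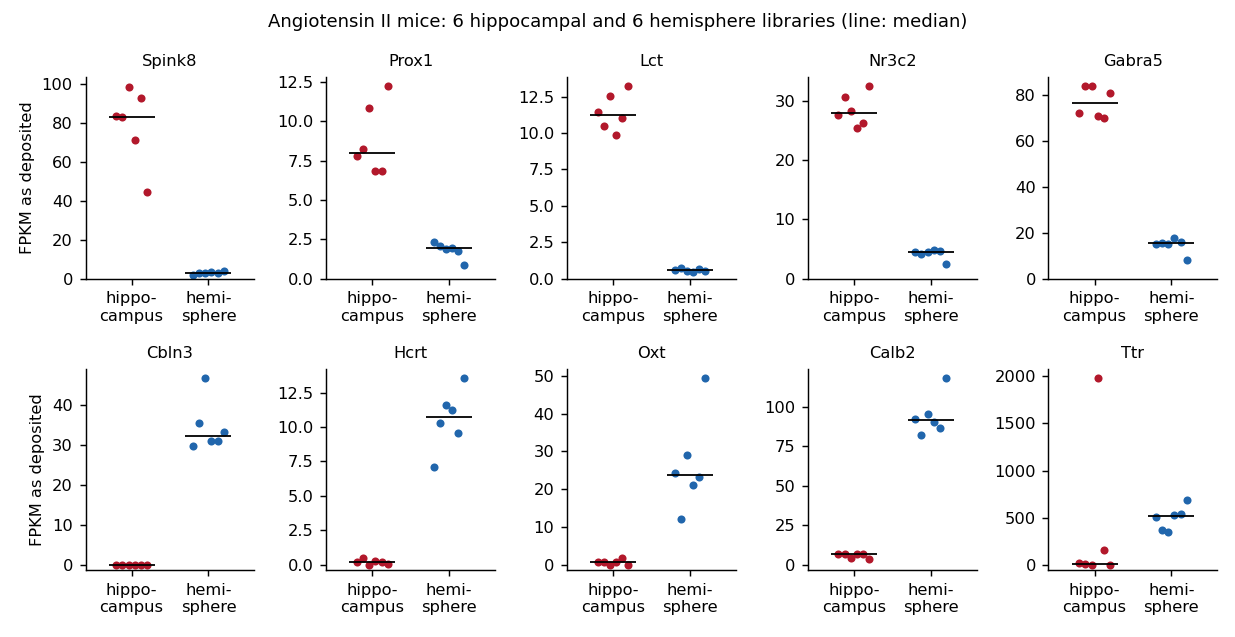
FPKM as deposited of 10 genes in the 6 hippocampal (left, red) and 6 hemisphere (right, blue) libraries of angiotensin II mice, with the median of each group as a line. The upper 5 genes are higher in every hippocampal library than in any hemisphere library; the lower 5 are higher in the hemisphere, except that Ttr reaches 1979 FPKM in hippocampal replicate 4.

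The 15 largest differences on the hippocampal side ran from 4.73 for Spink8 to 2.72 for Wipf3 on the log2 scale. They include Lefty1, an inhibitor of Nodal signalling (3.89 ± 0.19), Klk8, the secreted protease neuropsin (3.85 ± 0.19), and C1ql2, a synaptic organiser released by mossy fibres (3.81 ± 0.19). Hpca, which encodes the calcium sensor hippocalcin, was at 1094 to 1835 FPKM (median 1685) in the hippocampus and 210 to 300 FPKM (median 219) in the hemisphere. Cnih2, an auxiliary subunit of AMPA receptors, differed by 2.88 ± 0.22, Rasd1, a dexamethasone-induced Ras-like protein, by 3.02 ± 0.10, Npy2r, a receptor for neuropeptide Y, by 2.79 ± 0.14, and Dsp, the desmosomal protein desmoplakin found in granule cells, by 2.77 ± 0.11. In vehicle mice the same 15 genes differed by 2.60 (Nr3c2) to 4.65 (Spink8), all in the same direction.

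Lists of cell type markers give the same picture by counts. Counts of these and later lists stand beside 26.6% higher and 22.4% lower over all genes tested under angiotensin II. Under vehicle these shares were 27.3% and 21.8%. Of 18 dentate granule cell genes tested, 13 were higher and 3 lower in the hippocampus of angiotensin II mice, with a median log2 difference of 1.39. Among CA1 pyramidal genes, 10 of 13 were higher and 1 lower (median 1.52), and among CA2 and CA3 genes 8 of 14 were higher and 3 lower (median 0.79), where all genes tested had a median of 0.05. Besides Spink8, the CA1 list holds Neurod6 (2.62 ± 0.14), Fibcd1 (2.47 ± 0.12) and Wfs1, the wolframin gene (1.08 ± 0.14). In vehicle mice 12 dentate, 10 CA1 and 9 CA2 and CA3 genes were higher, and no member of the 3 lists passed the test of the difference between treatments. In whole tissue, more cells of a type and more RNA per cell cannot be told apart.

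On the hemisphere side the leading genes belong to structures that the hippocampus lacks. Cbln3, a synaptic protein of cerebellar granule cells, was at 0 to 0.075 FPKM (median 0.0624) in the hippocampus and 29.7 to 46.6 FPKM (median 32.1) in the hemisphere. Its groups did not overlap, and the log2 difference was -5.89 ± 0.11 (adjusted p = 2.8e-12). Oxt, the oxytocin gene of hypothalamic neurons, was at 0 to 1.69 FPKM (median 0.696) in the hippocampus and 12.1 to 49.3 FPKM (median 23.8) in the hemisphere (-4.48 ± 0.41). Hcrt, which encodes the hypothalamic wakefulness peptides orexins, was at 0 to 0.515 FPKM (median 0.212) in the hippocampus and 7.12 to 13.5 FPKM (median 10.8) in the hemisphere and differed by -3.84 ± 0.20, and Pmch, which encodes melanin-concentrating hormone, by -3.25 ± 0.31. All 16 cerebellar genes tested were lower in the hippocampus (median -3.38), as were all 14 striatal genes tested of 16 (median -1.98), 11 of 13 hypothalamic genes (median -2.32), 11 of 12 tested of the 19 hindbrain and monoamine genes (median -1.97) and 13 of 17 neocortical genes, 3 of which were higher (median -0.99). Examples are the dopamine receptors Drd1 (-1.99 ± 0.14) and Drd2 (-3.01 ± 0.26), the adenosine receptor Adora2a (-3.49 ± 0.17), the dopamine-synthesis enzyme Th (-3.65 ± 0.17) and the upper-layer cortical factor Cux2 (-2.11 ± 0.17). Within the hippocampal libraries 10 of the 16 cerebellar genes and 9 of the 16 hypothalamic genes stayed under 1 FPKM in all 6, and the hypothalamic factor Sim1 was listed at 0 in all 6. Of the 19 hindbrain and monoamine genes 17 stayed under 1 FPKM in all 6 and 7 were listed at 0. Members this low in the hippocampus could pass the filter only through the hemisphere libraries, which fixes their direction. These counts and medians, and the values of single genes this low, such as Cbln3 with its p-value, are a description and support no difference.

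The same regional pattern was present in both treatments. Of the 14974 genes tested in both treatments, 5662 were called in both with the same direction, 3105 higher and 2557 lower, and 0 were called in opposite directions. Another 1692 genes were called under angiotensin II only (949 higher, 743 lower) and 1699 under vehicle only (1038 higher, 661 lower). Across the 14974 genes the regional log2 differences of the treatments had a Pearson r of 0.91 and a slope of 0.84; this describes genes measured in the same 24 libraries, which are not independent of each other. Of the 2179 genes that were called at least 2-fold apart under angiotensin II and tested in both treatments, 1971 (90.5%) were also called under vehicle in the same direction and 208 were not called there.

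Whether a regional difference itself differed between treatments was tested with the difference of differences over 24 libraries, angiotensin II minus vehicle. No gene of 15731 passed (0%), in limma at an adjusted p under 0.05. At an unadjusted p under 0.05 there were 508 genes, 250 with the difference shifted upwards under angiotensin II (1.59%) and 258 downwards (1.64%). The 95% interval of this difference reached 0.52 log2 to either side for the median gene and 1.1 for the gene at the 90th percentile. These are unadjusted intervals of single genes, so at this depth and replication larger shifts could also miss the adjusted threshold. A gene called under one treatment only is thus not shown to differ between treatments.

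**Figure D2:**
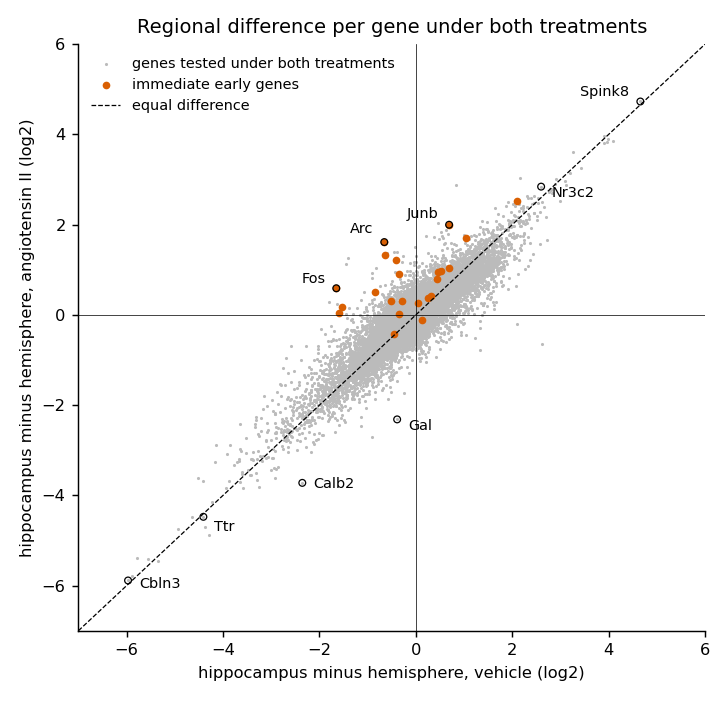
Log2 difference, hippocampus minus hemisphere, under angiotensin II (y axis) and under vehicle (x axis) for the 14974 genes tested in both, with immediate early genes in orange and equal differences on the dashed line. Most genes lie along the line from Cbln3 to Spink8; Arc, Fos and Junb lie above it, and Gal and Calb2 below it.

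Which genes were called under one treatment only differed with the libraries that entered. Without the 3 angiotensin II libraries that stood apart, 1430 of the 1699 vehicle-only genes (84.2%) were called under angiotensin II in the same direction and 0 in the opposite one. In that fit 11301 of all 15457 genes tested were called. The vehicle hippocampal group also held 2 libraries with few genes, replicate 3 with 12322 and replicate 4 with 15684 genes above 0; without them, 1281 of the 1692 angiotensin II-only genes (75.7%) were called under vehicle in the same direction and 2 in the opposite one. In that vehicle fit 10478 of all 15248 genes tested were called. Without the 3 libraries, 7068 genes were called in both treatments, 3946 under angiotensin II only and 293 under vehicle only. Without all 5 libraries, 9461 were called in both, 1549 under angiotensin II only and 861 under vehicle only, and 4 in opposite directions, namely Arc, Per1, Trim11 and 4933431K14Rik, named after their values were seen. Without hippocampal vehicle replicate 3 alone the angiotensin II-only genes numbered 693.

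**Figure D3:**
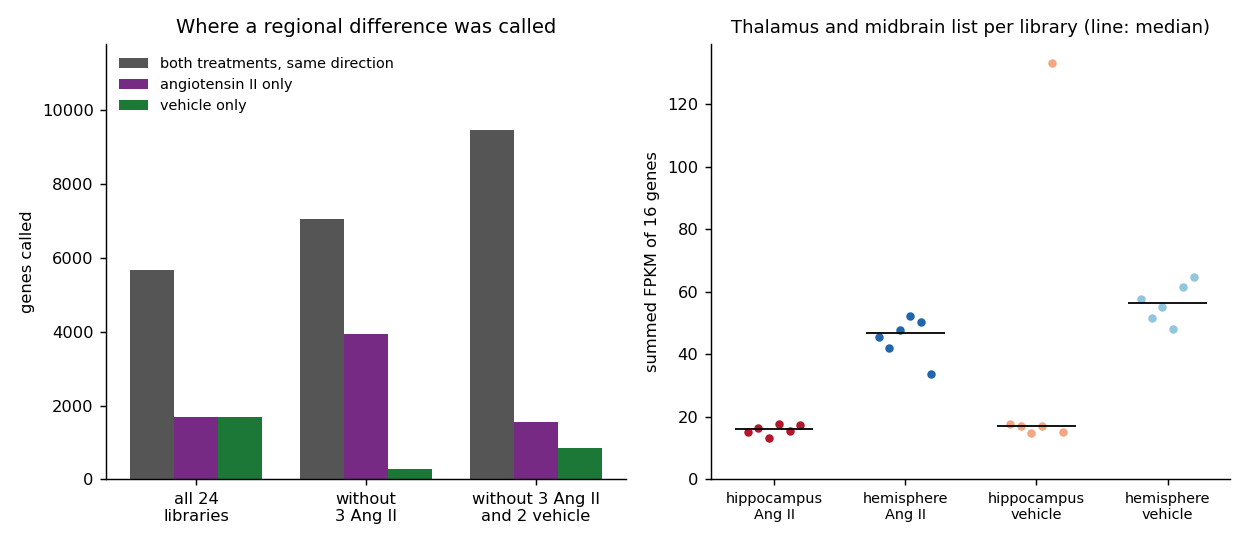
Left, genes called in both treatments, under angiotensin II only and under vehicle only, with all 24 libraries, without 3 angiotensin II libraries, and without those and 2 vehicle libraries: vehicle-only genes number 1699, 293 and 861. Right, summed FPKM of the thalamus and midbrain list in each library, with medians as lines: hippocampal vehicle replicate 5 stands at 133 FPKM, above all other libraries.

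Regional differences seen under vehicle and not under angiotensin II included glial and vascular genes. Fabp7, a fatty acid-binding protein of radial glia and astrocytes, was at 18.4 to 40.2 FPKM (median 32.6) in the hippocampus and 23.7 to 42.0 FPKM (median 29.2) in the hemisphere of angiotensin II mice. Vehicle hippocampal libraries held 33.9 to 77.4 FPKM (median 43.7) and vehicle hemisphere libraries 19.1 to 30.5 FPKM (median 25.9). The regions thus overlapped under angiotensin II and did not under vehicle. Its log2 difference was 0.21 ± 0.21 under angiotensin II (adjusted p = 0.44) and 1.14 ± 0.17 under vehicle (adjusted p = 0.00011), and the difference of differences was -0.94 (95% interval -1.52 to -0.36, adjusted p = 0.94). Higd1b, a gene of pericytes, differed by 0.20 ± 0.22 under angiotensin II and by 1.04 ± 0.14 under vehicle. Ly6c1, a surface antigen of brain endothelium in the mouse, differed by 0.25 ± 0.18 and 1.03 ± 0.17 in that order of treatments, and Itgb1bp1, an integrin-binding adaptor, by 0.17 ± 0.14 and 0.77 ± 0.11. Without the 3 libraries all 4 were called higher in the hippocampus of angiotensin II mice too, at 0.52 for Fabp7 (adjusted p = 0.011), 0.59 for Higd1b (adjusted p = 0.00082), 0.54 for Ly6c1 (adjusted p = 7.75e-05) and 0.41 for Itgb1bp1 (adjusted p = 2.8e-05). Irf2bpl, a transcriptional regulator, was at -0.07 ± 0.11 under angiotensin II and was lower in the hippocampus under vehicle (-0.61 ± 0.09), and it too was called without the 3 libraries (-0.19, adjusted p = 0.0074).

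Of the vehicle-only genes named here, Egr2, an immediate early transcription factor, and Trib1, a pseudokinase, were not called under angiotensin II without the 3 libraries either. Egr2 was at 0.66 to 4.17 FPKM (median 0.941) in the hippocampus and 0.594 to 1.85 FPKM (median 1.18) in the hemisphere of angiotensin II mice, and at 0 to 1.79 FPKM (median 0.657) in the hippocampus and 1.09 to 5.30 FPKM (median 3.67) in the hemisphere of vehicle mice. Its difference was 0.18 ± 0.32 under angiotensin II, -0.23 without the 3 libraries (adjusted p = 0.31), and -1.54 ± 0.40 under vehicle (adjusted p = 0.0061). Trib1 differed by -0.08 ± 0.12 under angiotensin II and -1.06 ± 0.27 under vehicle (difference of differences 0.97, 95% interval 0.35 to 1.6, adjusted p = 0.94).

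Regional differences seen under angiotensin II and not under vehicle were led by Arc, the synaptic immediate early gene whose protein drives AMPA receptor endocytosis (chromosome 15, GRCm38). Arc was at 50.0 to 80.9 FPKM (median 65.9) in the hippocampus and 18 to 29.8 FPKM (median 24.5) in the hemisphere of angiotensin II mice, and at 23.7 to 80.5 FPKM (median 46.9) in the hippocampus and 40.1 to 124 FPKM (median 95.4) in the hemisphere of vehicle mice. The regions were separate under angiotensin II, with the hippocampus higher, and overlapped under vehicle, with the higher median in the hemisphere. The log2 difference was 1.61 ± 0.15 under angiotensin II (adjusted p = 3.5e-06) and -0.66 ± 0.34 under vehicle (adjusted p = 0.13). Without the 2 vehicle libraries with few genes the vehicle value of Arc was -0.91 and was called lower (adjusted p = 0.041). The difference of differences was 2.26 (95% interval 1.46 to 3.06), and its adjusted p of 0.086, the smallest of all genes, missed the threshold. Over 40 other settings it ranged from 2.07 to 2.52 with an adjusted p from 0.0045, without hemisphere vehicle replicate 3, to 0.97, without the 3 libraries, and it was called in 8 of them.

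Immediate early genes as a list were more often higher in the hippocampus under angiotensin II. Of 23 members, 15 were higher and 0 lower under angiotensin II (median 0.59), and 6 were higher and 2 lower under vehicle (median -0.29). With no scaling or median-of-ratios scaling the angiotensin II counts were 11 higher and 1 lower, and without the 2 vehicle libraries with few genes the vehicle counts were 5 higher and 6 lower (median 0.07). In that vehicle fit 6055 of all 15248 genes tested were higher and 4423 lower. The difference of differences was above 0 for 22 of the 23 genes, with a median of 0.59 and 13 at an unadjusted p under 0.05; 0 passed the adjusted threshold. Among all genes tested it was above 0 for 7857 of 15731, with 508 at an unadjusted p under 0.05. Over the other settings 21 to 23 genes were above 0 and 10 to 17 were at an unadjusted p under 0.05. The list was chosen with earlier results of these libraries known, so these counts are a description.

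**Figure D4:**
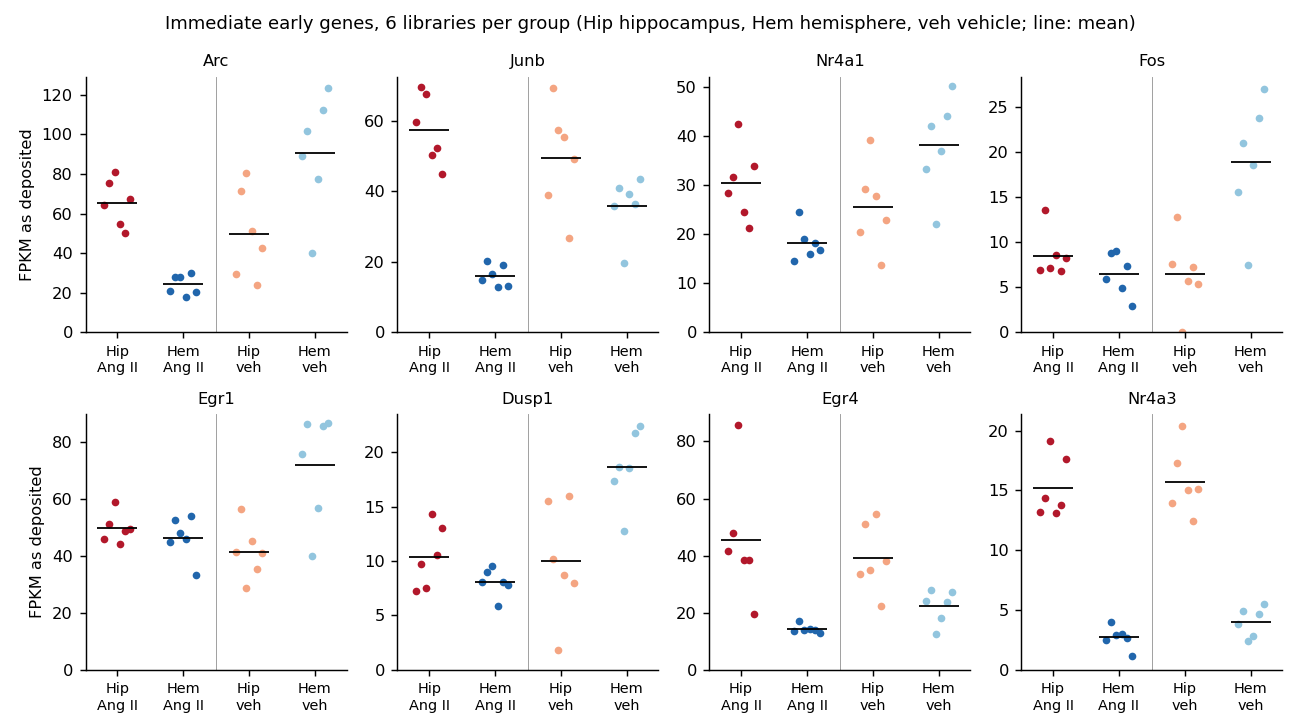
FPKM as deposited of 8 immediate early genes in the 6 libraries of each group (Hip, hippocampus; Hem, hemisphere; veh, vehicle), with the mean as a line. Arc, Junb, Egr4 and Nr4a3 do not overlap between regions under angiotensin II; Fos is listed at 0 in hippocampal vehicle replicate 3.

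Within the list the members moved in different ways. Junb, a subunit of the AP-1 transcription factor, was at 44.9 to 69.5 FPKM (median 55.9) in the hippocampus and 12.8 to 20.2 FPKM (median 15.6) in the hemisphere of angiotensin II mice, and at 26.9 to 69.4 FPKM (median 52.3) in the hippocampus and 19.6 to 43.6 FPKM (median 37.8) in the hemisphere of vehicle mice. It was higher in the hippocampus under both treatments, by 2.00 ± 0.15 (adjusted p = 4.8e-07) and 0.69 ± 0.24 (adjusted p = 0.031), and the difference of differences was 1.30 (95% interval 0.69 to 1.91, adjusted p = 0.94). Without the 2 vehicle libraries with few genes the vehicle value of Junb was 0.56 and missed the threshold (adjusted p = 0.096). Nr4a1, an orphan nuclear receptor, was at 21.3 to 42.4 FPKM (median 30.0) in the hippocampus and 14.5 to 24.6 FPKM (median 17.5) in the hemisphere of angiotensin II mice, and was called there (0.90 ± 0.16, adjusted p = 0.00068); under vehicle it was at -0.35 ± 0.25 (adjusted p = 0.27). Nr4a3, its paralogue, was at 13.1 to 19.2 FPKM (median 14.1) in the hippocampus and 1.15 to 3.97 FPKM (median 2.81) in the hemisphere under angiotensin II, and it differed by 2.52 ± 0.18 there and by 2.11 ± 0.19 under vehicle. Egr4, a zinc finger transcription factor, differed by 1.70 ± 0.27 and, under vehicle, by 1.03 ± 0.24. For Nr4a3 and Egr4 the regional difference was thus called in both treatments, and the 95% interval of the difference of differences included 0 (-0.15 to 0.97 and -0.12 to 1.44).

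Fos, Egr1 and Dusp1, which encodes a phosphatase of MAP kinases, had the higher median in the hemisphere under vehicle. Fos was at 6.80 to 13.6 FPKM (median 7.69) in the hippocampus and 2.98 to 9.06 FPKM (median 6.67) in the hemisphere of angiotensin II mice, and at 0 to 12.8 FPKM (median 6.50) in the hippocampus and 7.47 to 27.0 FPKM (median 19.8) in the hemisphere of vehicle mice. Its log2 difference was 0.59 ± 0.23 under angiotensin II, at an adjusted p of 0.0499, and -1.65 ± 0.67 under vehicle (adjusted p = 0.058); without the 3 libraries the angiotensin II value was 0.51 with an adjusted p of 0.074. Without the 2 vehicle libraries with few genes the vehicle value of Fos was -0.88 and was called (adjusted p = 0.034). Egr1 differed by 0.30 ± 0.11 under angiotensin II (adjusted p = 0.039) and by -0.52 ± 0.21 under vehicle (adjusted p = 0.056), and with quantile scaling its angiotensin II difference was -0.08. Dusp1 differed by 0.50 ± 0.16 (adjusted p = 0.020) and by -0.84 ± 0.39 (adjusted p = 0.095) in that order, and its vehicle value without the 2 libraries was -0.36 (adjusted p = 0.13). Hippocampal vehicle replicate 3, in which Fos was listed at 0, is 1 of the libraries with few genes.

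Promoters are shown for the members with a RefSeq window that had the smallest interaction p or the largest regional difference, named after their values were seen, since cyclic AMP response elements are a textbook feature of immediate early promoters. The windows run from 250 bases before to 50 bases after the start on GRCm38.p6, written 5′ to 3′ on the gene's strand, and capitals mark TGACG, the core of that element, or its complement CGTCA; where 2 matches overlap, both are counted. The windows lie at chr8:84978699-84978998 on the minus strand (Junb), chr15:101266596-101266895 on the plus strand (Nr4a1), chr4:48045055-48045354 on the plus strand (Nr4a3) and chr6:85513540-85513839 on the minus strand (Egr4).
Junb: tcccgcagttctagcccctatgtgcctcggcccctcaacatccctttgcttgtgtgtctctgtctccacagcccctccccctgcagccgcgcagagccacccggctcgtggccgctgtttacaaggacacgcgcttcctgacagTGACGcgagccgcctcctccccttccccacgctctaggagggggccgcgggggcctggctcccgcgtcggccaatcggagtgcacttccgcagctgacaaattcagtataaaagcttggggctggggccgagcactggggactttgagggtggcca
Nr4a1: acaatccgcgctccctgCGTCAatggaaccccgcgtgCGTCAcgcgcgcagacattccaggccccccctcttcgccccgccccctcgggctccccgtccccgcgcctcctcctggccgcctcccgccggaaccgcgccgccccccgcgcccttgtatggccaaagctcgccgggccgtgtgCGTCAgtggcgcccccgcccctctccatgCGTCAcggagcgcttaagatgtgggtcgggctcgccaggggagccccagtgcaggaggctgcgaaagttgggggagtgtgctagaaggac
Nr4a3: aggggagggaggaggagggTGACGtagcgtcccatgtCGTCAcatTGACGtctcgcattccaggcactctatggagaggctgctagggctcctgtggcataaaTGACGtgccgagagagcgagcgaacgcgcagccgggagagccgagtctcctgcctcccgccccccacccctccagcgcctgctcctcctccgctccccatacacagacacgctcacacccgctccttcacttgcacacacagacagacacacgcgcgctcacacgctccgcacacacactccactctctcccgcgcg
Egr4: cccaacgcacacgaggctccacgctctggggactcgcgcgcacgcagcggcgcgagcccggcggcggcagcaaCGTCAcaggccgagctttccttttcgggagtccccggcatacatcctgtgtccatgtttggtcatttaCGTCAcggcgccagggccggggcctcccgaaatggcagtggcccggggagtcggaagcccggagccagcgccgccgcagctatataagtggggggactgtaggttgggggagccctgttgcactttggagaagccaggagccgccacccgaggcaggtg
Junb holds 1 match, Nr4a1 and Nr4a3 4 each and Egr4 2. Of the 23 list members 18 have a window, and 13 of these 18 hold a match, where 5681 of 27025 windows of the same length hold one (21.0%). A match describes these letters only and is not a binding site.

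Outside this list, Tnfrsf25, a death domain receptor of the tumour necrosis factor family, was at 11.3 to 18.3 FPKM (median 15.8) in the hippocampus and 3.79 to 5.57 FPKM (median 4.88) in the hemisphere of angiotensin II mice, where the regions were separate. Under vehicle the regions overlapped, with 5.76 to 15.5 FPKM (median 9.70) in the hippocampus and 4.18 to 10.7 FPKM (median 8.31) in the hemisphere. The log2 differences were 1.75 ± 0.14 (adjusted p = 9.0e-07) and 0.54 ± 0.27 (adjusted p = 0.12), with a difference of differences of 1.21 (95% interval 0.55 to 1.86, adjusted p = 0.94). Without hippocampal vehicle replicate 5 the vehicle value of Tnfrsf25 was 0.69 and was called (adjusted p = 0.047). Csrnp1, an AXIN1-induced nuclear protein, differed by 1.03 ± 0.13 under angiotensin II and by 0.35 ± 0.15 under vehicle, and its vehicle value without the 2 libraries with few genes was 0.47 and was called (adjusted p = 0.0069).

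In Gal, Cartpt and Cited4 the difference of differences was below 0, and none of the 3 passed its test. Gal, the precursor of galanin, was at 0 to 1.52 FPKM (median 0.314) in the hippocampus and 2.97 to 5.94 FPKM (median 4.2) in the hemisphere of angiotensin II mice, and at 0.682 to 10.6 FPKM (median 1.64) in the hippocampus and 2.82 to 4.91 FPKM (median 3.22) in the hemisphere of vehicle mice. It was lower in the hippocampus under angiotensin II (-2.32 ± 0.29, adjusted p = 4.4e-05) and at -0.39 ± 0.48 under vehicle (adjusted p = 0.54); without the 2 vehicle libraries with few genes, 1 of which held the highest value of 10.6 FPKM, the vehicle value was -0.94 (adjusted p = 0.026). Gal reached the filter under angiotensin II only through the hemisphere libraries, which fixes its direction, so its angiotensin II values are a description. Cartpt, the precursor of the CART peptides, was at 1.05 to 4.27 FPKM (median 2.86) in the hippocampus and 12.8 to 25.2 FPKM (median 19.0) in the hemisphere under angiotensin II. It differed by -2.46 ± 0.27 under angiotensin II and -1.14 ± 0.25 under vehicle, both called; the difference of differences was -1.32 (95% interval -2.13 to -0.52, adjusted p = 0.94) with all 24 libraries and -0.66 without the 5. Cited4, a coactivator of CBP and p300, was lower in the hippocampus under angiotensin II (-1.86 ± 0.24); its vehicle value was -0.57 ± 0.32 (adjusted p = 0.165), or -0.92 without the 2 libraries (adjusted p = 0.0025). Neuropeptide genes did not share this direction, since Pmch had a difference of differences of 0.91 (95% interval 0.18 to 1.63, adjusted p = 0.94) and Oxt one of 0.16.

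Markers of thalamus and midbrain were lower in the hippocampus more widely under angiotensin II than under vehicle when all libraries entered, and not without 1 vehicle library. Under angiotensin II 12 of 14 tested genes were lower in the hippocampus and 1 was higher (median -1.04), while under vehicle 5 of 15 were lower and 1 higher (median -0.91). The list's 16 genes summed to 13.3 to 17.7 FPKM in the hippocampus and 33.65 to 52.4 FPKM in the hemisphere of angiotensin II mice. In vehicle mice hippocampal replicate 5 stood at 133 FPKM, against 14.7 to 17.8 FPKM in the other 5 hippocampal libraries and 48.1 to 64.7 FPKM in the hemisphere. Without the 2 vehicle libraries with few genes, 3 of 15 were lower and 1 higher under vehicle (median -0.52), beside 4423 and 6055 of all 15248 genes tested. Without hippocampal vehicle replicate 5, 12 of 15 were lower and 1 higher (median -1.20), beside 3316 and 4137 of all 15248. The same library held Calb2, the calcium buffer calretinin, at 136 FPKM, against 7.55 to 13.8 FPKM in the other 5, and Zic1, a patterning factor of thalamus and cerebellum, at 27.8 FPKM, against 0 to 1.23 FPKM in the other 5. Calb2 was at 3.96 to 6.99 FPKM (median 6.76) in the hippocampus and 82.4 to 118 FPKM (median 91.3) in the hemisphere of angiotensin II mice; it differed by -3.72 ± 0.18 under angiotensin II and -2.36 ± 0.58 under vehicle, or -2.99 under vehicle without replicate 5. Slc17a6, the vesicular glutamate transporter of thalamic neurons, differed by -2.60 ± 0.22 under angiotensin II and by -1.69 ± 0.54 under vehicle, or by -2.23 without replicate 5.

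Choroid plexus genes showed the reverse case, with 1 angiotensin II library apart. Ttr, the thyroid hormone carrier transthyretin, was at 0 to 1979 FPKM (median 11.8) in the hippocampus and 349 to 687 FPKM (median 513) in the hemisphere of angiotensin II mice. The highest value was in hippocampal replicate 4, whose choroid plexus list summed to 2085 FPKM, against 23.4 to 195 FPKM in the other 5, and the regions overlapped through that library. The log2 difference was -4.48 ± 1.57 (adjusted p = 0.031), or -5.82 without replicate 4 (adjusted p = 0.0017), and -2.25 without the 3 other libraries (adjusted p = 0.21); under vehicle it was -4.41 ± 0.51. Of 11 choroid plexus genes tested, 5 were lower and 1 higher under angiotensin II (median -1.03) and 8 lower under vehicle (median -1.40). Without replicate 4, 8 were lower under angiotensin II, beside 3216 of all 15457 genes tested. Without the 3 libraries that stood apart 1 was lower, beside 4841 of all 15457. Clic6, a chloride channel protein of choroid epithelium, differed by -1.92 ± 0.52 under angiotensin II (adjusted p = 0.0084) and missed the threshold without the 3 libraries (-1.49, adjusted p = 0.054). Choroid plexus lies in the ventricles beside the hippocampus, and the part of this list's level in other results was not tested.

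Of the renin-angiotensin genes 7 of 13 were tested, and 2 were higher and 3 lower in the hippocampus of angiotensin II mice. Mas1, the receptor for angiotensin 1-7, was at 13.8 to 17.1 FPKM (median 16.4) in the hippocampus and 4.93 to 6.30 FPKM (median 5.37) in the hemisphere, 1.65 ± 0.09 apart on the log2 scale (adjusted p = 2.55e-08), against 1.89 ± 0.15 under vehicle. Agt, the precursor angiotensinogen, made in the brain chiefly by astrocytes, was at 7.88 to 15.3 FPKM (median 11.2) in the hippocampus and 39.3 to 76.0 FPKM (median 46.6) in the hemisphere. It differed by -1.92 ± 0.21 under angiotensin II (adjusted p = 9.8e-06) and by -1.06 ± 0.33 under vehicle (adjusted p = 0.018). The difference of differences of Agt was -0.86 (95% interval -1.71 to -0.01, adjusted p = 0.94) and -0.54 without hippocampal vehicle replicate 5, in which Agt was at 58.0 FPKM against 9.80 to 23.2 FPKM in the other 5. Ace, the angiotensin-converting enzyme, differed by -1.31 ± 0.32 and Anpep, an aminopeptidase that trims angiotensins, by -1.01 ± 0.27. Agtr1a, the type 1 receptor, did not reach the filter: it was at 0 to 0.318 FPKM (median 0.218) in the hippocampus and 0.0953 to 0.237 FPKM (median 0.166) in the hemisphere. Cyba, a subunit of NADPH oxidases, was higher in the hippocampus (1.21 ± 0.33, adjusted p = 0.0089).

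Of the steroid receptors, 1 of 2 differed between regions. Nr3c2, the mineralocorticoid receptor, was at 25.3 to 32.5 FPKM (median 27.9) in the hippocampus and 2.48 to 4.77 FPKM (median 4.43) in the hemisphere of angiotensin II mice. The regions were separate, by 2.84 ± 0.11 (adjusted p = 1.9e-09), and by 2.60 ± 0.10 under vehicle. Nr3c1, the glucocorticoid receptor, was at 6.79 to 9.52 FPKM (median 7.15) in the hippocampus and 4.40 to 8.72 FPKM (median 7.96) in the hemisphere, and the regions overlapped (0.22 ± 0.12, adjusted p = 0.15). Of 14 genes of the glucocorticoid response tested, 5 were higher and 3 lower, beside 26.6% and 22.4% of all genes tested. Sgk1, a kinase induced by both hormones, was at 17.6 to 34.2 FPKM (median 22) in the hippocampus and 7.38 to 13.5 FPKM (median 10.5) in the hemisphere (1.34 ± 0.18), and Fkbp5, a co-chaperone that dampens the glucocorticoid receptor, differed by 0.62 ± 0.13. Klf9 was lower at -1.40 ± 0.54 (adjusted p = 0.046) although hippocampal replicate 6 held 28.3 FPKM, against 1.01 to 4.85 FPKM in the other 5, and it missed the threshold under 13 of the alternatives.

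Receptors and postsynaptic genes set the regions apart gene by gene. Of 22 glutamate receptor genes 11 were higher and 9 lower in the hippocampus of angiotensin II mice. Grin2a, an NMDA receptor subunit, was at 18.2 to 23.9 FPKM (median 20.6) in the hippocampus and 4.47 to 6.56 FPKM (median 6.25) in the hemisphere (1.90 ± 0.08), while Grm4, a presynaptic metabotropic receptor of cerebellar granule cells, was lower (-3.61 ± 0.18). Grin2b differed by 0.56 ± 0.14 (adjusted p = 0.0064) and missed the threshold with no scaling (adjusted p = 0.073). Among 13 GABA-A receptor genes 6 were higher and 3 lower, and 6 and 6 without the 3 libraries. In that last fit 6460 of all 15457 genes tested were higher and 4841 lower. Gabra5, the subunit of extrasynaptic receptors on pyramidal neurons, was at 69.8 to 84.1 FPKM (median 76.5) in the hippocampus and 7.94 to 17.8 FPKM (median 15.4) in the hemisphere (2.59 ± 0.14), whereas Gabra3 (-1.65 ± 0.15), Gabrd (-1.62 ± 0.23) and the cerebellar Gabra6 (-5.39 ± 0.18) were lower. Gabra6 was listed at 0 in all hippocampal libraries of vehicle mice. A gene this low in the hippocampus passes the filter only through the hemisphere libraries, which fixes its direction. The value of Gabra6 and its place among the lower genes are therefore a description. In the list of postsynaptic scaffolds and plasticity kinases 12 of 16 were higher and 1 lower (median 0.98), among them Nrgn, the calmodulin-binding neurogranin (2.04 ± 0.24), and Itpka, an inositol trisphosphate kinase of dendritic spines (1.67 ± 0.19). Of 22 neurotrophin and neuropeptide genes 10 were higher, including Bdnf (1.77 ± 0.12) and Ntf3 (2.41 ± 0.19), and 7 lower, including Adcyap1, the precursor of PACAP (-2.92 ± 0.24). No gene in these 4 lists passed the test of the difference between treatments.

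Interneuron genes went both ways, with 4 of 13 higher and 6 lower. Npy was at 85.2 to 262 FPKM (median 222) in the hippocampus and 67.4 to 117 FPKM (median 80.3) in the hemisphere of angiotensin II mice (1.42 ± 0.28), and the neuropeptide genes Cck (1.91 ± 0.23) and Cort (1.55 ± 0.27) were also higher. The whole list summed to 904 FPKM in hippocampal replicate 6, against 1752 to 2037 FPKM in the other 5 hippocampal libraries and 956 to 1287 FPKM in the hemisphere.

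**Figure D5:**
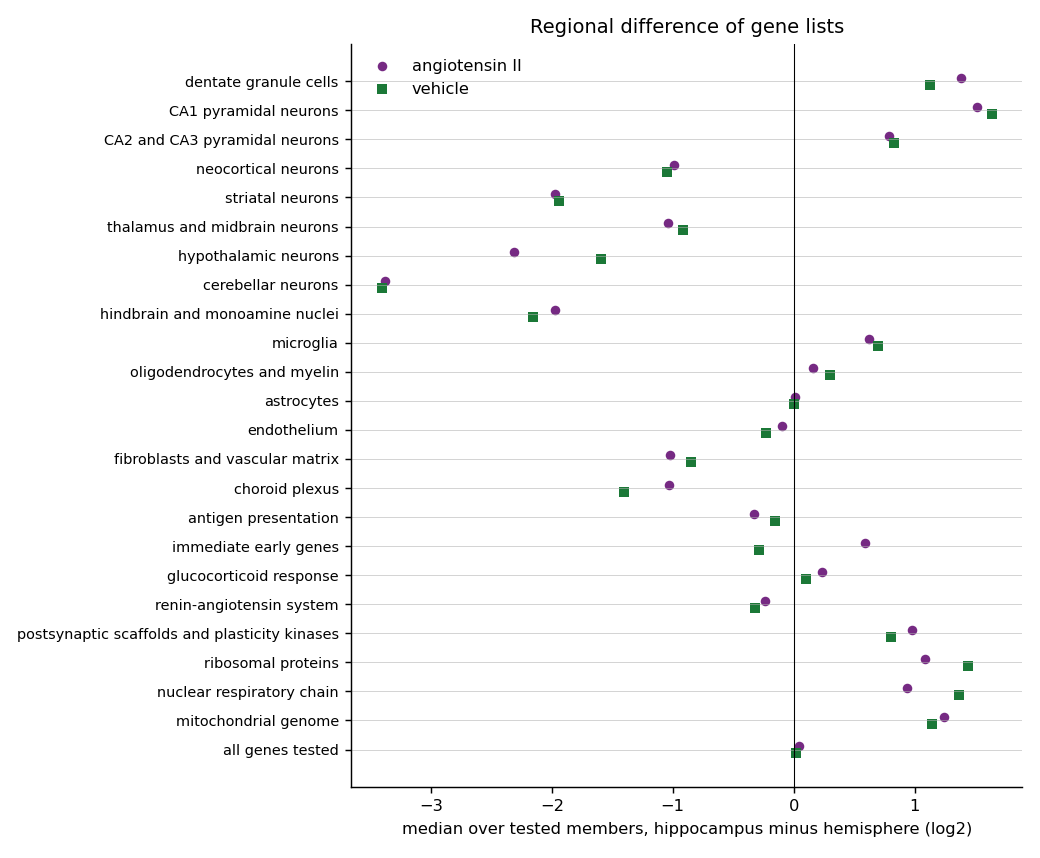
Median log2 difference, hippocampus minus hemisphere, over the tested members of 23 gene lists and over all genes tested (bottom row), under angiotensin II (circles) and vehicle (squares). Hippocampal neuron lists lie at 0.79 to 1.52 and cerebellar genes at -3.38 under angiotensin II; immediate early genes lie at 0.59 under angiotensin II and -0.29 under vehicle.

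Microglial genes were higher in the hippocampus under both treatments. Of 18 microglial genes 13 were higher and 0 lower in the hippocampus of angiotensin II mice (median 0.62), and 11 were higher under vehicle (median 0.69). Tyrobp, the signalling adaptor of microglial receptors, was at 16.8 to 48.3 FPKM (median 35.4) in the hippocampus and 14.6 to 24 FPKM (median 15.5) in the hemisphere. The regions overlapped, because hemisphere replicate 6 held 24 FPKM and the hippocampus reached down to 16.8 FPKM (1.12 ± 0.24, adjusted p = 0.0022; 1.54 without the 3 libraries). C1qa, a complement component made by microglia, differed by 1.07 ± 0.23, P2ry12, their purine receptor, by 1.06 ± 0.19, and Aif1 by 0.73 ± 0.20. Gfap, the astrocyte filament gene, was higher (0.63 ± 0.14, adjusted p = 0.0027), though not with quantile scaling (adjusted p = 0.45). In the astrocyte list 4 of 13 were higher and 4 lower, beside 26.6% and 22.4% of all genes tested. In the list of oligodendrocytes and myelin 6 of 19 were higher and 1 lower, with a median of 0.16. With no scaling 2 were higher and 4 lower (median -0.01), and with quantile scaling 2 were higher and 6 lower (median -0.12), so no direction is given for this list. Over all 15457 genes tested, 2735 were higher and 4820 lower with no scaling, and 3963 and 3784 with quantile scaling. Opalin was higher (1.04 ± 0.17), Mag lower (-0.47 ± 0.15), and Mbp was at -0.19 ± 0.13 (adjusted p = 0.25).

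Genes of fibroblasts and vascular matrix were lower in the hippocampus. Of 15 tested in that list 11 were lower and 0 higher under angiotensin II (median -1.02), and 10 were lower under vehicle (median -0.85). The list summed to 944 FPKM in hippocampal angiotensin II replicate 4, against 152 to 538 FPKM in the other 5, and to 1116 FPKM in hippocampal vehicle replicate 5, against 349 to 517 FPKM in the other 5. Without each of these libraries 13 were lower under angiotensin II (median -1.04) and 12 under vehicle (median -0.94). In these fits 3216 of all 15457 genes tested were lower under angiotensin II and 3316 of 15248 under vehicle. Eln, which encodes elastin, was at 0.478 to 1.17 FPKM (median 0.864) in the hippocampus and 2.19 to 3.99 FPKM (median 2.46) in the hemisphere of angiotensin II mice (-1.13 ± 0.18, adjusted p = 0.00026). Vehicle values were 0 to 0.929 FPKM (median 0.616) in the hippocampus and 1.28 to 1.78 FPKM (median 1.58) in the hemisphere (-0.85 ± 0.24), and the difference of differences was -0.28 (95% interval -0.91 to 0.34). The collagens Col1a1 (-1.55 ± 0.31) and Col1a2 (-1.54 ± 0.27) and Aldh1a2, a retinoic acid enzyme of the meninges (-2.18 ± 0.41), were lower as well. Under angiotensin II the endothelial and mural lists did not exceed the 22.4% of all genes tested that were lower. On the other side 0 of their tested members were higher, against 26.6% of all genes tested. Of 11 mural genes tested 1 was lower and 0 higher under angiotensin II (median -0.17), and 1 lower and 3 higher under vehicle (median 0.09). Of 20 endothelial genes 4 were lower and 0 higher, among them Podxl, the surface sialomucin podocalyxin (-0.95 ± 0.17), and Tie1, an endothelial receptor kinase (-0.83 ± 0.16); under vehicle 5 were lower and 4 higher, and without the 3 libraries 7 and 5 under angiotensin II. In that last fit 4841 of all 15457 genes tested were lower and 6460 higher. Cldn5, the tight junction protein claudin-5, was at 32.4 to 63.9 FPKM (median 44.6) in the hippocampus and 39.1 to 73.0 FPKM (median 42.5) in the hemisphere (0.18 ± 0.21, adjusted p = 0.50), and was called higher without the 3 libraries (0.55, adjusted p = 0.0010). Cldn5 under angiotensin II was at -0.01 with no scaling and at -0.17 with quantile scaling.

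Antigen presentation genes had 6 of 15 lower and 2 higher under angiotensin II (median -0.33), and 2 lower and 2 higher under vehicle (median -0.16). H2-Aa, a chain of class II molecules, was at 0 to 0.973 FPKM (median 0.221) in the hippocampus and 1.58 to 5.10 FPKM (median 2.46) in the hemisphere of angiotensin II mice, and at 0 to 2.23 FPKM (median 0.409) in the hippocampus and 1.45 to 2.02 FPKM (median 1.53) in the hemisphere of vehicle mice. It was lower under angiotensin II (-1.86 ± 0.31, adjusted p = 0.00036) and at -0.85 ± 0.38 under vehicle (adjusted p = 0.080), or at -1.12 without hippocampal vehicle replicate 5 (adjusted p = 0.012). H2-Aa reached the filter only through the hemisphere libraries, which fixes its direction, so its regional values are a description. H2-Ab1, its partner chain, differed by -1.70 ± 0.36 under angiotensin II and -0.53 ± 0.41 under vehicle. The difference of differences did not pass for either (H2-Aa -1.01, H2-Ab1 -1.18, both with an adjusted p of 0.94).

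Genes of ribosomes and respiration were higher in the hippocampus under both treatments. All 37 ribosomal protein genes were higher under angiotensin II (median 1.09) and 36 under vehicle (median 1.45). Rpl30, for example, was at 40.1 to 127 FPKM (median 112) in the hippocampus and 30.2 to 44.8 FPKM (median 33.3) in the hemisphere of angiotensin II mice; the regions overlapped through hippocampal replicate 6, at 40.1 FPKM (1.61 ± 0.27, adjusted p = 0.00045). Of 27 nuclear respiratory chain genes 22 were higher and 0 lower (median 0.94; vehicle median 1.36), and of 13 mitochondrial genome genes 10 were higher and 0 lower (median 1.24). Cox6a1, a subunit of cytochrome oxidase, differed by 1.30 ± 0.29, and mt-Atp6, a subunit of ATP synthase, by 1.74 ± 0.41. These genes are short, and the trend on gene length moved with region as given above; with the length trend removed 36 of 37 ribosomal genes (median 0.87) and 21 of 27 respiratory genes (median 0.65) were still higher and 1 respiratory gene was lower. Quantile scaling left 31 ribosomal genes and 10 respiratory genes higher, with 4 respiratory genes lower. Over all 15457 genes tested, 3844 were higher and 3778 lower with the length trend removed, and 3963 and 3784 with quantile scaling. The medians of the difference of differences were -0.33 for ribosomal and -0.41 for respiratory genes, and -0.07 and -0.10 without the 5 libraries.

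Smaller lists add single genes. With all 12 libraries and median scaling, their counts stand beside 26.6% higher and 22.4% lower over all genes tested. Vegfa, the vascular growth factor, was at 4.65 to 10.9 FPKM (median 5.63) in the hippocampus and 15.1 to 23 FPKM (median 19.4) in the hemisphere of angiotensin II mice (-1.39 ± 0.15), and 3 of 12 hypoxia genes were lower and 0 higher. Npas2, a clock transcription factor of forebrain neurons, was lower (-1.49 ± 0.14), in a list in which 3 of 16 were higher and 3 lower. Hspe1, a mitochondrial chaperonin, was higher (1.19 ± 0.23), as were 7 of 12 heat shock genes (median 0.38), a count of 3 higher and 2 lower with no scaling or with quantile scaling, whose median was -0.12. All genes tested gave 2735 higher and 4820 lower with no scaling, and 3963 and 3784 with quantile scaling. Neat1, the nuclear scaffold RNA of paraspeckles, was at 2.93 to 6.06 FPKM (median 3.96) in the hippocampus and 8.64 to 10.4 FPKM (median 9.83) in the hemisphere (-0.98 ± 0.14, adjusted p = 0.00014), against -0.61 ± 0.14 under vehicle.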

How the data were processed

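Whole-tissue RNA was sequenced from 48 libraries, and the FPKM values of 54532 genes were used as the authors deposited them. The submitters' processing notes name DESeq 1.10.1 and the builds GRCm38 and mm10, and no source used here gives the aligner or the counter. FPKM times gene length came out as whole reads for 100% of values (within 0.1 read), which gave the depth of each library.

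Here FPKM of each library was scaled to a common median and log2(FPKM + 0.5) was fitted with limma 3.58.1 (trend and robust prior, R 4.3.3), hippocampus minus hemisphere, over genes at 0.5 FPKM or more in at least 6 of 12 libraries. The difference of differences was fitted over 24 libraries. All p-values were adjusted by Benjamini and Hochberg over all genes tested. Figures were drawn with matplotlib 3.10.9. The scripts were tested on simulated data. The members and the 42 gene lists were chosen with earlier results of these data known.

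Named genes were the 15 largest called differences in each direction, the 10 smallest p of the difference of differences, for each treatment the 5 genes with the largest t of that difference among those called at least 2-fold apart under it and not called under the other, up to 4 called members of each list with the largest differences, and a set of receptor and marker genes. Of the genes this rule picks, 2 are not reported here. Other genes are said to be named after their values were seen. Pseudocount, filter, scaling, limma's prior, library weights, the replicate block, a gene-length trend removed, a 48-library fit and libraries left out were tried as alternatives. For lists and single genes, leaving out hippocampal angiotensin II replicate 4 or hippocampal vehicle replicate 5 was chosen after seeing the data.

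Same-numbered hippocampal and hemisphere libraries were checked for pairing: their deviations from the group means correlated at -0.23 to 0.061 under angiotensin II and -0.086 to 0.043 under vehicle, so the numbers were not used as pairs.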

Additional observations from a re-analysis of the deposited data

Results flagged for a closer look

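Within 124 groups of 6 libraries, 28 values lay apart from the other 5 of their group by more than 0.625 of the group's range (Dixon's limit for 6), where chance gives about 1 in 20. Many of them belong to the libraries left out above, and no cause was tested.

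Genes above 0 numbered 14043 in hippocampal angiotensin II replicate 3 (others 21986 to 23044), 23165 in hemisphere angiotensin II replicate 6 (others 24410 to 24782) and 23693 in hemisphere vehicle replicate 1 (others 24506 to 24938). Reads in genes were 14.4 M in hippocampal angiotensin II replicate 3, against 18.6 to 20.9 M. The mitochondrial share of reads was 5.74% in hippocampal angiotensin II replicate 6 (others 8.91% to 10.01%), 2.77% in hemisphere angiotensin II replicate 6 (others 5.84% to 6.66%) and 7.22% in hemisphere vehicle replicate 1 (others 5.89% to 6.21%). The length trend relative to the mean of the 24 libraries (Spearman's rho) was -0.15 in hemisphere angiotensin II replicate 6 (others 0.12 to 0.22) and -0.024 in hemisphere vehicle replicate 1 (others 0.2 to 0.27).

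In hemisphere angiotensin II replicate 6, 7 named genes lay apart. Nr3c2 was at 2.48 FPKM (others 4.21 to 4.77) and Gabra5 at 7.94 FPKM (others 14.9 to 17.8). Calb2 was at 118 FPKM (others 82.4 to 95.6), Agt at 76 FPKM (others 39.3 to 46.7) and Tyrobp at 24 FPKM (others 14.6 to 17). Cldn5 was at 73 FPKM (others 39.1 to 45.7) and Higd1b at 6.89 FPKM (others 4.05 to 4.99).

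In hippocampal vehicle replicate 5, Ttr was at 108 FPKM (others 7.24 to 33.6), Calb2 at 136 FPKM (others 7.55 to 13.8), Agt at 58 FPKM (others 9.80 to 23.2) and Fabp7 at 77.4 FPKM (others 33.9 to 49.6). In other libraries, Ttr was at 1979 FPKM in hippocampal angiotensin II replicate 4 (others 0 to 158), Fos at 13.6 FPKM in replicate 2 (others 6.80 to 8.64), Gal at 1.52 FPKM in replicate 1 (others 0 to 0.512) and Rpl30 at 40.1 FPKM in replicate 6 (others 94.3 to 127) of the same group. Cbln3 was at 46.6 FPKM in hemisphere angiotensin II replicate 3 (others 29.7 to 35.5). Gal was at 10.6 FPKM in hippocampal vehicle replicate 3 (others 0.682 to 4.07), Junb at 19.6 FPKM in hemisphere vehicle replicate 3 (others 35.7 to 43.6) and Cldn5 at 62.1 FPKM in hemisphere vehicle replicate 1 (others 36.5 to 44.5).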

How the results depend on the processing

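Of the named genes, 101 were called under angiotensin II, and their 2625 values under the alternatives kept direction and call in 2557 cases, lost the call in 67 and reversed in 1 (Egr1, -0.079 with quantile scaling). Fos lost its call in 20 settings, Klf9 in 13, Egr1 in 11 and Ttr in 10. Among the uncalled genes 12 values reversed: Fabp7 was at -0.091 with quantile scaling and -0.19 with the gene-length trend removed, Itgb1bp1 at -0.012 with no scaling, and Egr2 at -0.19 with library weights, -0.23 without the 3 libraries and -0.11 to 0.30 with each library left out, the lowest without hippocampal angiotensin II replicate 3. Higd1b was at -0.30 with the length trend removed, Ly6c1 at -0.066 with quantile scaling and -0.078 with the length trend removed, and Cldn5 at -0.00903 with no scaling, -0.17 with quantile scaling and -0.12 with the length trend removed; the cause was not tested.

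Genes called under angiotensin II numbered 7562, and 11523 with library weights; leaving out each library gave 6649 to 8384, and 6754 to 9784 under vehicle. The difference of differences was called for 1 gene, Arc, with no scaling, median-of-ratios scaling, quantile scaling, library weights and all 48 libraries, and for 0 to 1 gene with each library left out. Genes called in both treatments in the same direction numbered 9987 with library weights and 9461 without the 5 libraries, and 5147 to 6658 with each library left out. Genes called in opposite directions numbered 1 with a pseudocount of 1 (Fos), 1 with no filter (1500005C15Rik), 1 with no scaling (Arc), 1 with median-of-ratios scaling (Arc), 2 with quantile scaling (Arc, Nr4a1), 6 with library weights (Arc, Ctdsp2, Dusp1, Trim11, Fos, 4933431K14Rik), 3 with the replicate block (Egr1, Fos, Snora41), 1 with all 48 libraries (Stk26), 4 without the 5 libraries, and 0 to 3 with each library left out; these were named after their values were seen.

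With the replicate block, 6372 genes were called under angiotensin II, 6891 under vehicle and 0 for the difference of differences (smallest adjusted p = 0.96).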

Other observations

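The series also holds mice given hydralazine, a vasodilator, at 50 mg per kg in drinking water together with angiotensin II or vehicle, 6 libraries for each region and treatment. Among the results above they enter only the fit with all 48 libraries. That fit kept 47 libraries after a library with a median of 0 was left out. In these groups Junb averaged 44.9 ± 10.04 FPKM in the hippocampus and 19.7 ± 6.21 FPKM in the hemisphere with angiotensin II, and 43.1 ± 16.3 FPKM in the hippocampus and 24.8 ± 5.63 FPKM in the hemisphere with vehicle (SD, n = 6 each). Arc averaged 45.6 ± 19.6 FPKM in the hippocampus and 39.5 ± 18.8 FPKM in the hemisphere with angiotensin II, and 56.9 ± 30.4 FPKM in the hippocampus and 53.8 ± 28.4 FPKM in the hemisphere with vehicle. For Arc the regional means thus lay within 1 SD of each other in both hydralazine treatments. Fos averaged 5.98 ± 3.62 FPKM in the hippocampus and 8.92 ± 3.73 FPKM in the hemisphere with angiotensin II, and 5.62 ± 3.10 FPKM in the hippocampus and 11.7 ± 3.77 FPKM in the hemisphere with vehicle. The effect of hydralazine on these regional differences was not tested.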
